A study of Mus musculus with 6 samples.

Results

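Integrins, laminins and the proteins that tie them together were examined in primary mouse aortic endothelial cell cultures. The 37 genes were chosen by name as 12 alpha integrins, 7 beta integrins, 9 laminin chains, 5 other basement membrane proteins and laminin receptors, and 4 cytoplasmic linkers and kinases. Of these, 35 were named by the array annotation among 18193 genes on the array, while Itga11 and Ptk2 had no probe set with their name in the annotation used here. Each gene was read from 1 probe set, the one with the highest mean over the arrays. The level filter, a log2(signal + 16) of 7.72 on average, left 25 of the 35 for testing. The other 10, all alpha or beta integrins or laminin chains, were not tested.

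The transgenic cultures came from C57 mice with a dominant negative form (V290M) of human PPARG, a lipid-sensing nuclear receptor, expressed from the endothelial promoter of CDH5. The other cultures came from non-transgenic C57 mice, and neither group was treated. Each group had 10 mice, whose cells went into 5 separate cultures. Affymetrix mouse genome arrays were run for 3 of these cultures in either group, so that n = 3 per group and each replicate pools 2 mice. The ages of the mice are not given in the sources used here.

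Integrins are pairs of an alpha and a beta subunit in the cell membrane that hold the matrix outside and, through talin, vinculin and integrin-linked kinase, the actin skeleton inside. Laminins are trimers of an alpha, a beta and a gamma chain that form a sheet under endothelium, which nidogens and perlecan tie to collagen IV. In arteries these proteins anchor endothelial cells and surround each smooth muscle cell.

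Over all genes, transgenic replicate 3 lay with the non-transgenic arrays and away from its own group. On the first principal component (65.0% of the variance) it lay at 30.2, with transgenic replicates 1 and 2 at -38.4 and -66.6 and the non-transgenic arrays between 15.9 and 32.3. Where leaving it out changes a call or moves a tested member's value by much, the value without it is also given. This culture was singled out from these same values, and leaving it out sets 2 transgenic against 3 non-transgenic cultures. Genes passing the test used below then rose from 0 to 1649. A pass without it is therefore a description and not separate support for a difference. The mean shift of 19 cell cycle genes from their non-transgenic mean was 1.95, 2.45 and -0.17 in the transgenic cultures, against 0.68, -0.32 and -0.36 in the non-transgenic cultures. The mean shift of 10 adipocyte markers was -1.33, -2.46 and -0.60 in the transgenic and 1.10, -0.49 and -0.61 in the non-transgenic cultures. Of 20 leukocyte and macrophage markers, the filter was reached by 6, 12 and 5 in the transgenic and 6, 5 and 6 in the non-transgenic cultures, with summed signals of 5832 to 23176 and 4206 to 5745. The 3′ to 5′ ratio of the Gapdh control probe sets was 1.33 ± 0.12 in the transgenic and 1.59 ± 0.11 in the non-transgenic group (SD, n = 3 each). These did not overlap (two-sided exact permutation p = 0.1, below which 3 against 3 cannot go). The same ratio for beta-actin was 1.78 ± 0.41 in the transgenic and 2.00 ± 0.17 in the non-transgenic group, with overlap (two-sided exact permutation p = 0.5). Per culture it was 1.74, 1.40 and 2.21 in the transgenic and 2.17, 2.00 and 1.83 in the non-transgenic group. The overlap came from transgenic replicate 3. Of 20 endothelial markers, 6 to 8 lay above the filter on each array. Those above it on average were Flt1, Tek, Cd34, Eng, Emcn, Egfl7 and Ramp2. The defining genes Cdh5, Pecam1, Nos3, Vwf and Erg had means under it in both groups. Fibroblast markers were above it in 19 or 20 of 20 on every array, and smooth muscle markers in 10 to 12 of 14. The smooth muscle genes Myh11, Cnn1, Des and Actg2 had means under it in both groups. What part these other cell types, cell division and RNA quality had in the values below was not tested, and in bulk RNA fewer cells of a type and less RNA per cell cannot be told apart.

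The comparison asked which adhesion genes differed between transgenic and non-transgenic cultures. In limma's moderated test over all 11208 tested genes, 0 of the 25 tested members passed a Benjamini-Hochberg adjusted p of 0.05, as did 0% of all genes. The members' smallest adjusted p was 0.428. In 4 of the 25 the unadjusted p was under 0.05, against 11.5% of all genes. These were Itga5 and Itga9 with higher values in transgenic cultures (6.47% of all genes) and Itga8 and Nid1 with lower ones (5.02% of all genes). The groups did not overlap for the same 4, against 16.1% of all genes, 9.39% higher and 6.72% lower. These shares among the members are close to those of all genes. Differences are given as transgenic minus non-transgenic in log2(signal + 16), a scale that understates the change of dim genes. Their median over all 35 measured members was -0.0061, beside -0.033 over all 18193 genes.

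**Figure D1:**
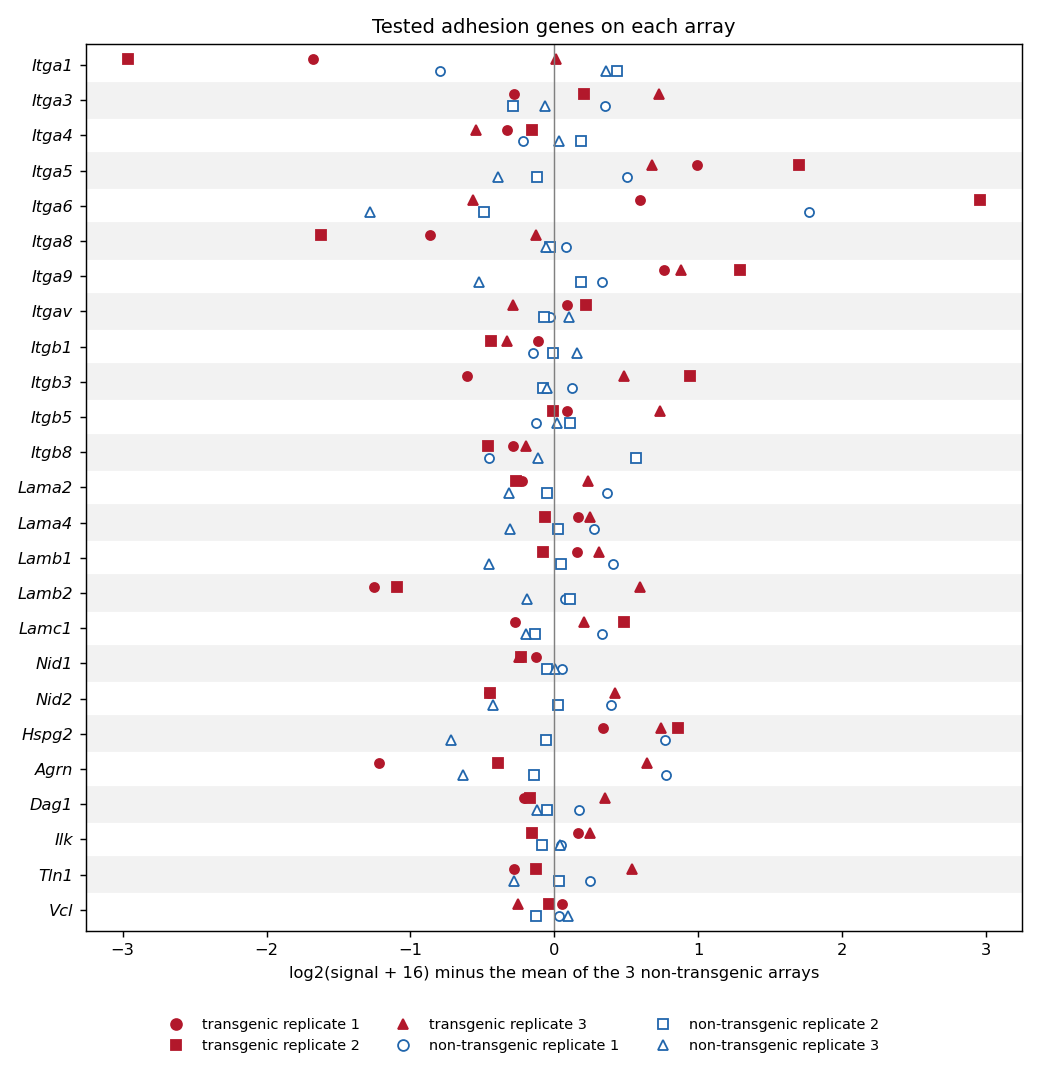
Each row is a tested adhesion gene, the horizontal axis is log2(signal + 16) minus the mean of the 3 non-transgenic arrays, filled red symbols are transgenic and open blue symbols non-transgenic cultures. Itga5 and Itga9 have all transgenic symbols to the right of the non-transgenic ones, Itga8 and Nid1 have them to the left, and Itga6 and Itga1 spread widest.

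The alpha integrins held the widest differences of the tested members, in both directions. The 5 largest in size were those of Itga1, Itga5, Itga6, Itga9 and Itga8, while the tested laminin chains and linkers ranged from -0.58 to 0.14. This describes the list and was not tested.

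Itga5 encodes the alpha subunit of the main fibronectin receptor, which pairs with Itgb1. It was at 12.90, 13.61 and 12.59 in the transgenic cultures, against 12.42, 11.79 and 11.52 in the non-transgenic ones. All 3 transgenic cultures, replicate 3 included, were above every non-transgenic culture. The difference of 1.12 ± 0.32 (SE, n = 3 per group), 2.18-fold, did not pass (limma adjusted p = 0.428). Without transgenic replicate 3 it was 1.35 ± 0.30 and passed (limma adjusted p = 0.0247). The other 2 probe sets above the filter, which were dimmer, differed by 0.30 ± 0.59 and 1.28 ± 0.60, and a further one under it by 1.05.

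Itga9, whose product pairs with Itgb1 and binds tenascin-C and other ligands, was at 9.57, 10.10 and 9.68 in the transgenic and at 9.13, 8.99 and 8.28 in the non-transgenic cultures. The groups did not overlap, and transgenic replicate 3 lay between the other transgenic cultures. The difference was 0.98 ± 0.32 (limma adjusted p = 0.428), and 1.03 ± 0.34 without transgenic replicate 3 (limma adjusted p = 0.0762). The probe sets of Itga9 disagreed, the other 2 differing by -0.27 ± 0.28 and 0.58 ± 0.29.

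Itga1, the alpha subunit of a collagen and laminin receptor that is abundant on smooth muscle and microvascular endothelium, had the largest difference of the tested members. It was at 10.81, 9.52 and 12.50 in the transgenic cultures, against 11.69, 12.92 and 12.84 in the non-transgenic ones. Transgenic replicates 1 and 2 were below every non-transgenic culture and replicate 3 was inside their range. The difference was -1.54 ± 0.70 with all arrays (limma adjusted p = 0.441) and -2.32 ± 0.46 without transgenic replicate 3, where it passed (limma adjusted p = 0.0175). Without transgenic replicate 2 it was -0.83. The second probe set had the same direction, at -1.12 ± 0.57.

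Itga8, which pairs with Itgb1, binds nephronectin and fibronectin and marks smooth muscle and other mesenchymal cells, was at 9.75, 8.99 and 10.49 in the transgenic and at 10.70, 10.59 and 10.56 in the non-transgenic cultures. The groups did not overlap, but transgenic replicate 3 was only just below the lowest non-transgenic culture. The SD was 0.75 in the transgenic group, against 0.08 in the non-transgenic one. The difference of -0.87 ± 0.37 did not pass (limma adjusted p = 0.434), while that of -1.24 ± 0.27 without transgenic replicate 3 did (limma adjusted p = 0.0234). Without transgenic replicate 2 it was -0.50.

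**Figure D2:**
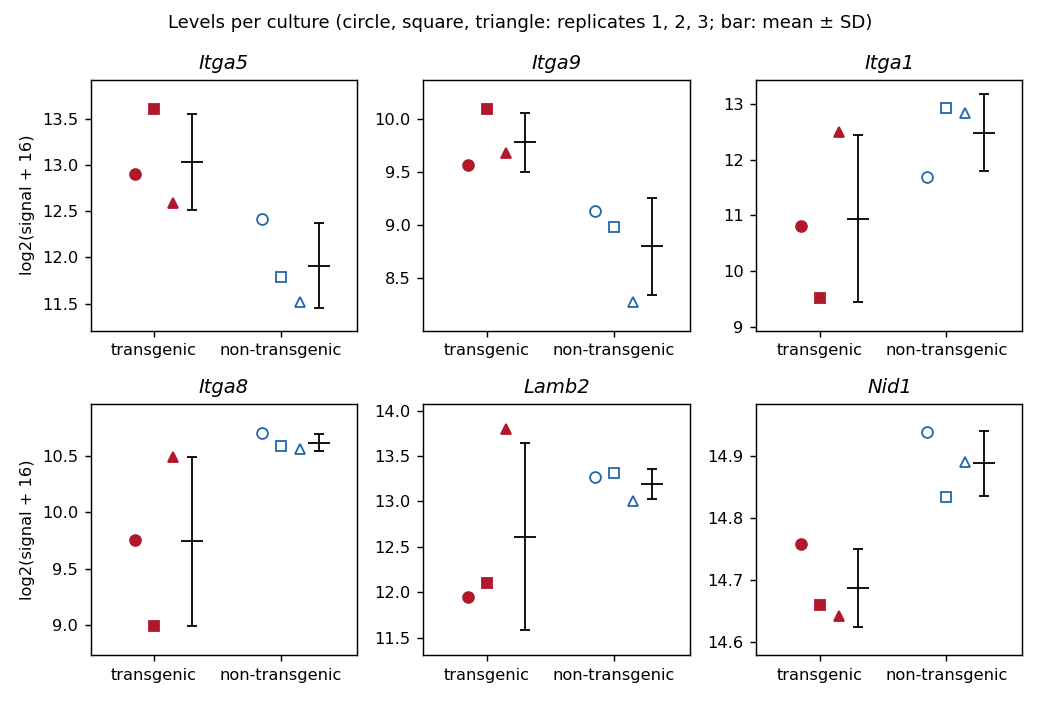
Levels of 6 adhesion genes in log2(signal + 16) per culture, transgenic left and non-transgenic right, with the mean ± SD of each group (n = 3); each vertical axis has its own range. Transgenic replicate 3, the red triangle, is among the transgenic cultures for Itga5, Itga9 and Nid1 and is close to or above the non-transgenic cultures for Itga1, Itga8 and Lamb2.

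Itga6, the alpha subunit of laminin receptors, varied more within the groups than between them. It was at 9.52, 11.88 and 8.36 in the transgenic cultures, against 10.70, 8.43 and 7.64 in the non-transgenic ones, with SDs of 1.80 in the transgenic and 1.59 in the non-transgenic group. Transgenic replicate 2 and non-transgenic replicate 1 were the high cultures, and the groups overlapped. The difference was 0.996 ± 1.02 (limma adjusted p = 0.692), and became 0.014 with transgenic replicate 2 left out, 1.78 without transgenic replicate 3 and 1.88 without non-transgenic replicate 1. Itgb4, which pairs with Itga6 in hemidesmosomes, lay under the filter on all 6 arrays.

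Itgav, the alpha subunit shared by vitronectin receptors, was at 14.60, 14.73 and 14.22 in the transgenic cultures and at 14.48, 14.44 and 14.61 in the non-transgenic ones. The transgenic values spread around the non-transgenic ones, and the difference was 0.0067 ± 0.14 with a 95% interval of -0.32 to 0.34. Its dimmer probe sets above the filter did not share a direction. They differed by 1.01 ± 0.37, without overlap, and by -0.38 ± 0.42, with overlap. The first of these did not pass when every probe set was tested (limma adjusted p = 0.265). Itga3, a laminin receptor subunit, differed by 0.22 ± 0.35, and Itga4, which pairs with Itgb1 or Itgb7 and binds VCAM1 and fibronectin, by -0.34 ± 0.28 (limma adjusted p = 0.804 and 0.615). Without transgenic replicate 3 these were -0.035 and -0.24, and that of Itgav was 0.16.

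Alpha integrins with a mean under the filter were Itga2, Itga7 and Itga10. The laminin receptor subunit Itga7 was at 7.20, 6.94 and 7.47 in the transgenic and at 7.72, 7.49 and 7.70 in the non-transgenic cultures, without overlap. The collagen receptor subunit Itga2 was at 7.04, 7.29 and 5.49 in the transgenic and at 4.54, 6.05 and 5.65 in the non-transgenic cultures, with overlap. Itga10, another collagen receptor subunit, differed by 0.071.

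The differences of the 4 tested beta integrins ranged from -0.31 to 0.27. Itgb1, the partner of most of these alpha subunits, was at 13.44, 13.11 and 13.22 in the transgenic cultures, against 13.40, 13.54 and 13.71 in the non-transgenic ones. Transgenic replicate 1 was just above the lowest non-transgenic culture, so the groups overlapped slightly. The difference was -0.29 ± 0.14 (limma adjusted p = 0.450), and its 5 probe sets above the filter all had a negative difference, from -0.13 to -0.47. On the next brightest probe set of Itgb1 the groups did not overlap. It was at 13.32, 13.06 and 13.17 in the transgenic and at 13.35, 13.51 and 13.65 in the non-transgenic cultures. That difference of -0.32 ± 0.14 did not pass when every probe set was tested (limma adjusted p = 0.316). On the brightest probe sets, with the scaling as deposited, the higher Itga5 and Itga9 values were thus seen beside slightly lower Itgb1 values. None of the 3 differences passed the test. Median array signals were 173 to 186.1 in the transgenic and 219.9 to 222.9 in the non-transgenic group. The size of the small Itgb1 difference therefore depends on the scaling.

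Itgb3, which pairs with Itgav and with the platelet subunit Itga2b, was at 8.92, 10.46 and 10.01 in the transgenic cultures, against 9.64, 9.45 and 9.47 in the non-transgenic ones. The transgenic cultures lay on both sides of the close non-transgenic values, with an SD of 0.79 in the transgenic and 0.11 in the non-transgenic group. The difference was 0.27 ± 0.40 (limma adjusted p = 0.785), and 0.17 without transgenic replicate 3. Itgb5, another partner of Itgav, differed by 0.27 ± 0.23, with all 4 probe sets positive, from 0.27 to 0.50. On the brightest probe set the difference rested on transgenic replicate 3, at 12.47 beside 11.83 and 11.73 in replicates 1 and 2, and was 0.040 without it. On the dimmest the groups did not overlap, at 11.43, 11.31 and 11.95 in the transgenic and at 11.18, 11.08 and 10.91 in the non-transgenic cultures. That difference of 0.50 ± 0.23 did not pass when every probe set was tested (limma adjusted p = 0.327).

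Itgb8, whose pair with Itgav helps to activate latent TGF-beta, was at 8.48, 8.30 and 8.56 in the transgenic and at 8.31, 9.33 and 8.65 in the non-transgenic cultures. The groups overlapped (difference -0.31 ± 0.33, limma adjusted p = 0.703). Itgb6 and Itgb7, an epithelial and a leukocyte subunit, lay under the filter, as did the leukocyte integrin genes Itgb2, Itgal, Itgam, Itgax and Itgae. Of the leukocyte and platelet integrin genes 1 was tested, Itga2b, with group means of 8.23 in transgenic and 7.51 in non-transgenic cultures.

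Among the laminins, 5 of 9 chains were tested. On their brightest probe sets Lama4, Lamb1 and Lamc1, the chains of the laminin trimer common in vessels, showed no difference larger than the spread. Lama4 was at 13.11, 12.88 and 13.19 in the transgenic and at 13.22, 12.97 and 12.64 in the non-transgenic cultures. Lamb1 was at 13.75, 13.52 and 13.90 in the transgenic and at 14.00, 13.64 and 13.14 in the non-transgenic cultures. Lamc1 was at 12.90, 13.66 and 13.38 in the transgenic and at 13.51, 13.04 and 12.97 in the non-transgenic cultures. In all 3 chains the groups overlapped on these probe sets, with non-transgenic replicate 1 the highest and replicate 3 the lowest of its group. The dimmer Lama4 probe set was lower in the transgenic cultures without overlap, at -0.33 ± 0.23. It did not pass when every probe set was tested (limma adjusted p = 0.498). On the brightest probe sets the differences of Lama4, Lamb1 and Lamc1 were 0.12 ± 0.18, 0.13 ± 0.22 and 0.14 ± 0.23. Their 95% intervals were -0.30 to 0.54, -0.38 to 0.64 and -0.39 to 0.67. Without transgenic replicate 3 the differences were 0.051, 0.043 and 0.10. Lama2, the alpha chain of muscle and mesenchymal basement membranes, differed by -0.085 ± 0.22, and by -0.24 without transgenic replicate 3.

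Lamb2, the beta chain found in arterial smooth muscle and kidney basement membranes, had the widest difference of the 5 tested laminin chains. It was at 11.94, 12.10 and 13.79 in the transgenic cultures, against 13.27, 13.31 and 13.01 in the non-transgenic ones. Transgenic replicates 1 and 2 were below all non-transgenic cultures, and replicate 3 was above them all. The difference of -0.58 ± 0.45 did not pass (limma adjusted p = 0.594). Without transgenic replicate 3 it was -1.17 ± 0.15 and passed (limma adjusted p = 0.00558). The gene is read by 1 probe set.

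Lama5, the alpha chain that endothelial basement membranes of mature vessels hold beside Lama4, lay under the filter on average. It was at 7.28, 5.65 and 8.64 in the transgenic and at 7.68, 7.54 and 7.79 in the non-transgenic cultures. Transgenic replicate 3 was the highest and replicate 2 the lowest of all 6, as on its second probe set, where they were at 8.77 and 5.93. Lama1, Lama3 and Lamb3, chains of embryonic or epithelial laminins, also lay under the filter, with differences of -0.068, 0.016 and -0.76. That of Lamb3 was -1.31 without transgenic replicate 3.

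Nid1, nidogen, which links laminin to collagen IV, had the least spread of the tested members, with SDs of 0.06 in the transgenic and 0.05 in the non-transgenic group. It was at 14.76, 14.66 and 14.64 in the transgenic cultures, against 14.94, 14.83 and 14.89 in the non-transgenic ones. Every transgenic value was below the lowest non-transgenic one. The difference of -0.20 ± 0.08, 1.15-fold, did not pass (limma adjusted p = 0.428). Its dimmer probe sets differed by -0.54 ± 0.21 and -0.84 ± 0.25, likewise without overlap, and did not pass when every probe set was tested (limma adjusted p = 0.287 and 0.231). With arrays scaled to their median probe set, which moved the median of all genes from -0.033 to 0.23, the difference of Nid1 turned to 0.089, still below that median.

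Nid2, the second nidogen, was at 11.73, 11.74 and 12.61 in the transgenic and at 12.58, 12.21 and 11.76 in the non-transgenic cultures. Hspg2, perlecan, the main heparan sulfate proteoglycan of vessel walls, was at 12.03, 12.55 and 12.43 in the transgenic and at 12.46, 11.64 and 10.97 in the non-transgenic cultures. Agrn, agrin, a heparan sulfate proteoglycan that binds laminin and dystroglycan, was at 10.63, 11.45 and 12.49 in the transgenic and at 12.62, 11.70 and 11.21 in the non-transgenic cultures. The groups overlapped for all 3 genes, and for Nid2 and Agrn transgenic replicate 3 was the highest of its group and non-transgenic replicate 1 the highest of its own. The differences were -0.16 ± 0.30, 0.65 ± 0.36 and -0.32 ± 0.51 (limma adjusted p = 0.840, 0.487 and 0.804), and -0.45, 0.60 and -0.80 without transgenic replicate 3. Dag1, dystroglycan, the laminin receptor that links to dystrophin, differed by -0.0061 ± 0.18, and by -0.19 without that culture.

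The 3 linkers measured between integrins and actin differed by less than 0.1 each. Ilk, the integrin-linked pseudokinase, was at 13.33, 13.00 and 13.41 in the transgenic and at 13.21, 13.07 and 13.20 in the non-transgenic cultures. Tln1, talin, which binds beta integrin tails and switches integrins on, was at 13.00, 13.15 and 13.82 in the transgenic and at 13.53, 13.31 and 13.00 in the non-transgenic cultures. Vcl, vinculin, which joins talin to actin, was at 15.10, 15.01 and 14.80 in the transgenic and at 15.08, 14.92 and 15.14 in the non-transgenic cultures. The groups overlapped in each gene. The differences were 0.087 ± 0.15, 0.045 ± 0.24 and -0.078 ± 0.11, with 95% intervals of -0.25 to 0.42, -0.51 to 0.60 and -0.33 to 0.17. Without transgenic replicate 3 they were 0.0048, -0.20 and 0.0097.

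**Figure D3:**
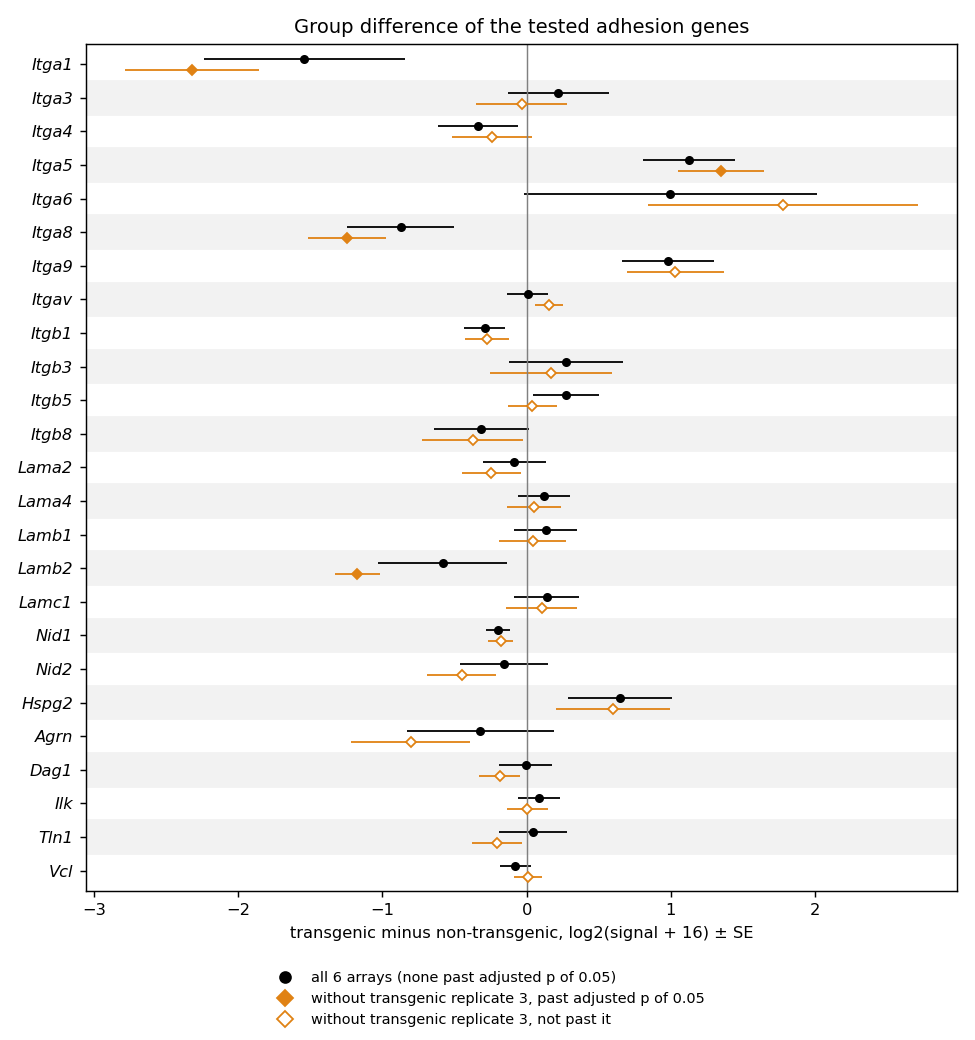
Differences between transgenic and non-transgenic cultures in log2(signal + 16) with limma's SE, black circles for all 6 arrays and orange diamonds without transgenic replicate 3, filled where the adjusted p was under 0.05. No black circle passed, and the filled diamonds are Itga5 at 1.35, Itga1 at -2.32, Itga8 at -1.24 and Lamb2 at -1.17.

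Leaving out transgenic replicate 3 gave 4 calls among the 25 tested members, 1 higher (Itga5) and 3 lower (Itga1, Itga8 and Lamb2), where 14.7% of all tested genes were called, 6.88% higher and 7.83% lower. The members' count is close to that share. Transgenic replicates 1 and 2 both lay beyond all non-transgenic cultures on the same side in 8 of the 25 members, against 50.2% of all genes. They were higher in 2 members (22.8% of all genes) and lower in 6 (27.4% of all genes). Of these 8, transgenic replicate 3 was on that side too for Itga5, Itga9, Itga8 and Nid1, inside the non-transgenic range for Itga1, and above every non-transgenic culture for Lamb2, Nid2 and Dag1. It was inside that range in 9 of the 25 members, against 39.2% of all genes.

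**Figure D4:**
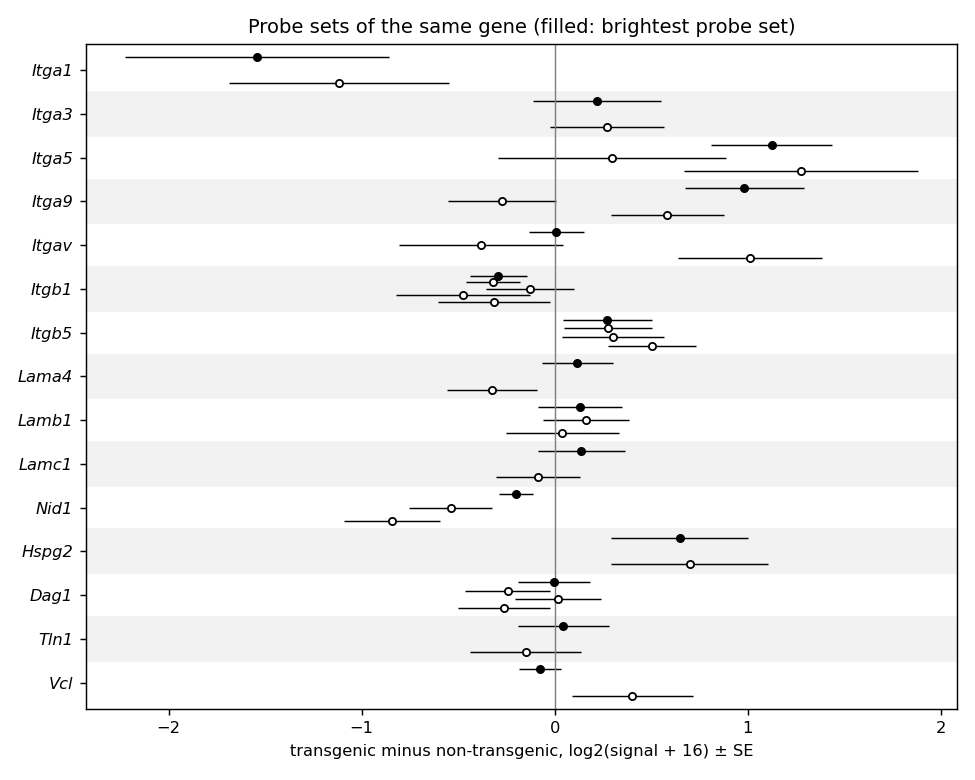
Differences between transgenic and non-transgenic cultures in log2(signal + 16) with limma's SE for each probe set above the level filter, for genes with 2 or more of them; filled symbols are the brightest probe sets. Of these 15 genes 8 have all probe sets on one side of 0, among them Itga1, Itga5, Itgb1, Nid1 and Hspg2, and Itgav and Itga9 have them on both.

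The 35 members had 81 probe sets, of which 52 lay above the filter. With every probe set tested, 7 of the 52 had an unadjusted p under 0.05, against 16% of all 22519 probe sets tested, and 0 passed the adjusted threshold, as did 0% of all. In 7 of the 15 genes with several probe sets above the filter, Dag1, Itga9, Itgav, Lama4, Lamc1, Tln1 and Vcl, the probe sets did not all have the same sign.

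Other genes of the same structures were described from lists, none of whose genes passed the test over all genes. Of 32 tested genes of focal adhesions, the contacts where integrins meet actin, 18 had higher and 14 lower values in transgenic cultures, and 0 passed, with 5 higher and 0 lower at an unadjusted p under 0.05, beside 6.47% and 5.02% of all tested genes. By sign alone, 5320 of all tested genes were higher and 5888 lower. The scaffold proteins Pxn, paxillin, and Bcar1 differed by 0.40 ± 0.17 and 0.54 ± 0.22, both without overlap. Tns1 and Tns3, tensins that bind beta integrin tails, differed by -0.28 ± 0.13 and -0.32 ± 0.20. Without transgenic replicate 3, 1 gene of this list passed as higher (Actn1, an actin crosslinker) and 3 as lower (Tns1, Tns3 and Lims2, a partner of Ilk), beside 6.88% and 7.83% of all tested genes. Of 20 further basement membrane genes tested, 13 were higher and 7 lower, with 0 called and 2 at an unadjusted p under 0.05, both higher (6.47% of all genes). The difference was 1.03 ± 0.39 for Npnt, nephronectin, a ligand of Itga8, which had the opposite sign, and 0.73 ± 0.30 for Tinagl1. Sparcl1 and the laminin-related guidance protein Ntn1 were at -1.99 ± 0.88 and -1.01 ± 0.50, with transgenic replicate 3 at 12.62 and 11.42 beside non-transgenic ranges of 12.19 to 12.63 and 11.10 to 11.20. Without that culture 1 gene of this list passed as higher, Tinagl1, and 4 as lower, Sparcl1, Ntn1, Smoc1 and Smoc2, beside the same 6.88% and 7.83% of all genes.

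Of 10 tested matrix ligands of integrins, 4 were higher and 6 lower, with 0 called. At an unadjusted p under 0.05 there was 1, Postn, which was lower (5.02% of all tested genes). Tnc, tenascin-C, was at 12.58, 12.93 and 11.25 in the transgenic and at 11.68, 11.29 and 10.73 in the non-transgenic cultures (1.02 ± 0.44). Thbs1, thrombospondin, differed by 0.94 ± 0.41, Postn, periostin, by -0.73 ± 0.25, and Col1a2, a collagen I chain, by -0.18 ± 0.11. Transgenic replicate 3 was within the non-transgenic range for Tnc and Thbs1. Without that culture both passed as higher and Postn as lower, beside 6.88% and 7.83% of all tested genes.

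Genes that act with dystroglycan numbered 13 tested, 3 higher and 10 lower, with 0 called. At an unadjusted p under 0.05 there was 1 in each direction, beside 6.47% higher and 5.02% lower of all tested genes. Sntb1, a syntrophin, differed by -1.22 ± 0.40 and Pomgnt1, an enzyme that puts sugars on dystroglycan, by 0.61 ± 0.16, both without overlap. Sgce, a sarcoglycan, and Dtnb, a dystrobrevin, differed by -0.45 ± 0.27 with overlap and by 0.47 ± 0.26 without overlap. Of 12 tested membrane partners of integrins, 7 were higher and 5 lower, with 0 called. At an unadjusted p under 0.05 there was 1, Cd82, which was higher (6.47% of all tested genes). The tetraspanin Cd82 was at 11.03, 11.01 and 10.90 in the transgenic and at 10.49, 10.29 and 10.41 in the non-transgenic cultures, without overlap (0.58 ± 0.19). Plaur, the urokinase receptor, differed by 1.73 ± 0.75, with transgenic replicate 3 inside the non-transgenic range, and Cd47 and the syndecan Sdc2 differed by -0.15 ± 0.11 and -0.14 ± 0.12. Without transgenic replicate 3 Pomgnt1 and Plaur passed as higher, the 1 call in each of these lists, beside 6.88% of all tested genes.

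For the 4 genes called without transgenic replicate 3, the promoter windows of RefSeq (GRCm38.p6, 250 bases before to 50 after the gene's start) are shown as the sequence context of those calls. Capitals mark the letters GGGCGG, known as a GC box, or their reverse complement. The windows are chr13:115101915-115102214 on the minus strand for Itga1, chr15:103366742-103367041 on the minus strand for Itga5, chr2:12301895-12302194 on the minus strand for Itga8 and chr9:108479612-108479911 on the plus strand for Lamb2.
Itga1: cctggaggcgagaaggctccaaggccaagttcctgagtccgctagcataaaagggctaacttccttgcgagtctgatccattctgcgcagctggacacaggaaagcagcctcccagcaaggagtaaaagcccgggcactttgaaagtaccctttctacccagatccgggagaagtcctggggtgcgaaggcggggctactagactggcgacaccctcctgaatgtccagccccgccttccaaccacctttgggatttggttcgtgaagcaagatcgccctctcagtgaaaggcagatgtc
Itga5: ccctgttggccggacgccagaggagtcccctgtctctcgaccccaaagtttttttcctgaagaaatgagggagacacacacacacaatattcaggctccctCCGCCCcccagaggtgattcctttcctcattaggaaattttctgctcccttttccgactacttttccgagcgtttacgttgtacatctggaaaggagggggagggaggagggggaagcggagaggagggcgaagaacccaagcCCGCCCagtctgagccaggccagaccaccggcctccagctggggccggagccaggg
Itga8: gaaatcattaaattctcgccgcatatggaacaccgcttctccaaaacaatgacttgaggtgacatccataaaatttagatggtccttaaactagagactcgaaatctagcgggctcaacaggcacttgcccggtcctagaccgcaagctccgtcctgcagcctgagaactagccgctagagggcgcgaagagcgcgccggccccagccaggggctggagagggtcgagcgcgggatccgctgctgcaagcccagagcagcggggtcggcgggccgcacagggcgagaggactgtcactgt
Lamb2: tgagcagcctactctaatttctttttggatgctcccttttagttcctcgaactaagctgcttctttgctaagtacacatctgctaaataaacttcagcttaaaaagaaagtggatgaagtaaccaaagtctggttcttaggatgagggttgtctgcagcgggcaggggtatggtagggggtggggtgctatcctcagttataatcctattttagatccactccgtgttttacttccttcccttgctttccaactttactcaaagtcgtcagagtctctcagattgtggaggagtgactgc

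Of the 37 listed genes 27 had a window, 33 windows in all. The letters AGGTCA, the core of the sites that PPARG and many other nuclear receptors bind, were found on neither strand of any of the 33, against 16.3% of all 32851 windows. TATAAA was likewise in 0 of 33, against 13.6% of all, on either strand. GGGCGG was in 19 of the 33 windows, those of 16 genes, against 35.7% of all windows. The members' windows held more G and C, with a median of 61.3% against 52.7% over all windows, and the part of this in the 3 motif counts was not tested. GGGCGG was there on the reverse strand at 2 places in Itga5 and in 0 of the other 3 windows shown. The motifs were chosen after the differences were known, and these counts describe the letters of the windows alone.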

How the data were processed

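Per the submitters' processing notes the authors deposited MAS5 signal intensities, linear values for each array at 45101 probe sets, 64 of them array controls. The version and scaling target are not given in the sources used here. About 50 ng of total RNA was amplified in 2 steps per the labels' protocols. Deposited intensities ran from 0.1 to 67821.8 and their scaling was kept. Their median without the controls was 183.6, 186.1 and 173 in the transgenic and 220.5, 219.9 and 222.9 in the non-transgenic arrays, without overlap.

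Probe sets took their gene from the array annotation (34945 with 1 gene, 932 with several and 9160 with none listed). Symbols of list genes were updated by gene identifier with RefSeq's table (GRCm38.p6). Values were log2(intensity + 16), 1 probe set per gene by highest mean, tested two-sided with limma 3.58.1 in R 4.3.3 (trended eBayes, Benjamini-Hochberg at 0.05 over 11208 genes whose mean reached the median probe set). SEs and intervals are limma's moderated ones. The test was checked on simulated arrays with independent normal values, equal spread in both groups and no outlying array. That check does not cover the unequal spread or the outlying culture of these data. The number of arrays limits the precision.

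Members, lists and the rule for named genes (every member, with values per array for those with a small p, no overlap, a call under an alternative, or a main vascular role, and the 2 smallest p per direction of each further list) were chosen with earlier results of these data known. Replicate numbers were not taken to pair the cultures. The correlations of same-numbered deviations were 0.042, -0.28 and -0.034, beside -0.16 to 0.31 for differently numbered ones. With 3 cultures per group these values cannot show whether cultures were paired. Alternatives were other pseudocounts, filters, scalings, priors, weights, probe set rules, a replicate block and each array left out. Lists of Schwann cell (2 of 6 measured tested), mesothelial and epithelial (6 of 11) and endothelial (7 of 20) markers had 0 genes called, as had all genes. Without transgenic replicate 3 calls were Flt1 higher and Ramp2 lower among the endothelial, and Krt7 and Krt19 higher among the mesothelial and epithelial markers. The same fit called 18 of 19 tested cell cycle genes higher and 4 of 8 tested adipocyte markers lower. Of 20 tested fibroblast markers it called 2 higher and 3 lower. Of 5 tested leukocyte and macrophage markers 2 were called higher and 1 lower, and of 10 smooth muscle markers 0. The shares of all tested genes were 6.88% higher and 7.83% lower.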

Additional observations from a re-analysis of the deposited data

How the results depend on the processing

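No member was called with another pseudocount, filter, scaling, variance prior, the mean of all probe sets or the replicate number as a block, where the median difference stayed at -0.0061 and 3 members had an unadjusted p under 0.05. With estimated array weights 5504 genes (49.1%) were called and 8 members, Itga1, Itga5, Itga8, Itga9, Itgb8, Lamb2, Nid2 and Agrn, with 12 members at an unadjusted p under 0.05. With the filter at the 75th percentile and with the mean of all probe sets, 1 member had an unadjusted p under 0.05 and 2 did not overlap, fewer members being tested. With that filter 18 members were tested, and the shares of all genes were 12.1% and 16.7%. Scaling to the median probe set moved the members' median to 0.27, beside 0.23 for all genes.

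Leaving out 1 array gave 0 to 1649 genes and 0 to 4 members called, both highest without transgenic replicate 3. It gave 1 to 5 members at an unadjusted p under 0.05, fewest without non-transgenic replicate 3, and 4 to 9 without overlap, most without non-transgenic replicate 1 (33% of all genes), and a median of -0.095 to 0.078.

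Among the tested members, none of them called with all arrays, some signs turned. Scaling to the median probe set gave 0.20 for Lama2, 0.089 for Nid1, 0.13 for Nid2, 0.28 for Dag1 and 0.21 for Vcl, and quantile normalization 0.027 for Vcl. Array weights gave -0.029 for Itga3, -0.43 for Itgb3, -0.11 for Lamc1, -0.23 for Tln1 and 0.11 for Vcl. The mean of all probe sets gave -0.31 for Itgav, -0.10 for Lama4, -0.083 for Lamb1, -0.23 for Tln1 and 0.16 for Vcl. With 1 array left out the ranges crossing 0 were -0.10 to 0.16 for Itgav, -0.24 to 0.099 for Lama2, -0.45 to 0.039 for Nid2, -0.80 to 0.13 for Agrn, -0.19 to 0.095 for Dag1, -0.035 to 0.26 for Lama4, -0.095 to 0.33 for Lamb1, -0.20 to 0.21 for Tln1, -0.060 to 0.71 for Itgb3, -0.034 to 0.34 for Lamc1, -0.035 to 0.47 for Itga3 and -0.14 to 0.0097 for Vcl. The causes were not tested. Dim genes under the filter, 10 of the 35 measured, are read close to background.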
